A study of Mus musculus with 6 samples.

Results

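This account describes 10 genes of the mammalian circadian clock in MC3T3-E1 cells, an established line from mouse calvaria that models osteoblast precursors. They are the period genes Per1, Per2 and Per3, the cryptochrome genes Cry1 and Cry2, the E-box repressor genes Bhlhe40 and Bhlhe41, the PAR bZIP genes Dbp and Tef, and Nfil3. The members were named in advance of the fit but with earlier results of these data known. All 10 of them were among the 19938 genes tested. Each was read by 1 probe set of the array, out of 28856 probe sets. Of the 6 arrays, 3 came from undifferentiated cells, which received no osteoblast induction and grew in α-MEM free of ascorbic acid, with 10% serum. The other 3 came from differentiated cells, induced once confluent and cultured a further 14 days in DMEM. That medium contained 10% serum, 0.1 µM dexamethasone (a synthetic glucocorticoid), 0.2 mM ascorbic acid-2-phosphate, 10 mM β-glycerophosphate and 1 mM sodium pyruvate. Both groups are the same line, which the labels give as C57BL/6 and of newborn origin. The base medium, confluence and every added compound changed at once between the groups, and their parts cannot be told apart. The labels give no hour of harvest and no interval since the last medium change. The replicates are called independent, with no word on what separated them, so p-values measure the spread between these arrays, which may be technical.

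In the mammalian clock, CLOCK and BMAL1 bind E-boxes in DNA and switch on the Per and Cry genes, whose proteins return to the nucleus and repress that same activity. BHLHE40 and BHLHE41 (also called DEC1 and DEC2) repress from the E-boxes themselves. DBP and TEF, which are made under E-box control, activate D-boxes, and NFIL3 (E4BP4) represses at the same D-boxes. Glucocorticoids and serum reset this clock in cultured cells, and Per1 is a textbook glucocorticoid target.

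Promoter windows of the RefSeq tables (build GRCm38.p6) were found for 8 of the 10 genes, 10 windows in all. Per2 and Bhlhe40 had no window and were not searched, so nothing is known here of their elements. The 250 bases before each start were searched on both strands for the E-box CACGTG, the related E-prime box CACGTT, the D-box TTATGTAA or TTACGTAA and the cyclic AMP response element TGACGTCA. An E-box was present in 5 of the 10 windows, which belong to 4 genes. Over all 32851 windows of the table the share was 6.02%. These stretches are shown because PER, CRY and BHLHE proteins repress through this element. Capitals mark the E-box, and each sequence is 30 bases long on the strand of its gene.
Per1, chr11:69098771-69098800, plus strand: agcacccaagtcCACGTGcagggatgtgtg
Bhlhe41, chr6:145865556-145865585, minus strand: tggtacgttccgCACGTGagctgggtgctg
Tef, first window, chr15:81802534-81802563, plus strand: gtgctgtggctcCACGTGctgcagctggca
Tef, second window, chr15:81811264-81811293, plus strand: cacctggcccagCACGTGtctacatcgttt
Cry1, chr10:85185097-85185126, minus strand: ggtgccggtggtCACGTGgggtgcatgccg

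The Per1 stretch comes from the first of its 2 windows, and the second held no E-box. The Per1 stretch and the second Tef stretch lie inside the RefSeq span of their gene, and the other 3 lie outside it. In Cry1 the E-box at bases -60 to -55 before the start follows an E-prime box at -79 to -74. Both are in capitals in the next stretch, where the E-prime box reads as its reverse complement.
Cry1, chr10:85185103-85185139, minus strand: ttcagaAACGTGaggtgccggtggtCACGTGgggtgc

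E-prime boxes stood in 3.85% of all windows and in those of Cry1 and Cry2 among the members. Per3 held 2 copies of the D-box TTATGTAA, at bases -205 to -198 and -158 to -151, and was the only one of the 8 genes with this element in the searched bases. That D-box was present in 0.819% of all windows. The pair is shown because DBP, TEF and NFIL3 act through such sites.
Per3, chr4:151044806-151044880, minus strand: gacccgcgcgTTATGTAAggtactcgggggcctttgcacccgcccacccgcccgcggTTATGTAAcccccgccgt

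Bhlhe41 had the largest change of the 10 genes, and its whole upstream stretch of 250 bases is given with the E-box in capitals.
Bhlhe41, chr6:145865421-145865670, minus strand: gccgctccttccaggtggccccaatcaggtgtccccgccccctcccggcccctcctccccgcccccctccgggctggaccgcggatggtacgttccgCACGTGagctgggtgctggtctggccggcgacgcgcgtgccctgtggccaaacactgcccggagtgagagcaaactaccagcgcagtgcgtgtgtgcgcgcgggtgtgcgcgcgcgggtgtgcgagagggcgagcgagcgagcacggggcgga

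The D-box TTACGTAA (0.113% of all windows) and the cyclic AMP element (1.55%) had no match in the 10 windows, which says only that these letters are not in these bases. A match is likewise a description of the letters and no evidence of binding.

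The deposited values are log2 expression from which the median over the 6 arrays has been removed for each probe set. They show differences between arrays and hide the level of a gene, so no gene can be ordered against another by abundance. The centring has a visible mark. For a gene read by 1 probe set, the middle values of the 6 arrays sit at the same distance from 0. When groups do not overlap, these are the innermost arrays of each group, as for Per1 at -0.90 and 0.90. Where groups overlap the middle values are symmetric too, as for Per3, Dbp and Nfil3. This symmetry about 0 is no finding. Known osteoblast genes were listed with earlier results of these data known, so they are no independent check. Of these genes, 5 of 11 were higher in differentiated arrays and 2 lower, or 1 lower after cyclic loess scaling. The 11 include the osteocyte phosphoprotein gene Dmp1 (log2 fold change 3.44 ± 0.20, SE) and bone sialoprotein gene Ibsp (3.12 ± 0.09). The lower genes were Col1a1 (-0.40 ± 0.07), a chain of type I collagen, and the osteoblast transcription factor gene Sp7 (-0.40 ± 0.07), and the median of the list was 0.02. Over all genes tested the shares higher and lower were 16.4% and 19.1%.

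After induction 7 of the 10 genes rose, led by the repressor genes Bhlhe41, Per1 and Bhlhe40, and none fell. In limma's test of differentiated against undifferentiated arrays, these 7 passed a Benjamini-Hochberg adjusted p of 0.05 over all genes. At an unadjusted limma p under 0.05, 8 of the 10 were higher and 0 lower. That unadjusted cut was passed by 8584 of the 19938 genes tested, counting both directions. At the adjusted threshold 16.4% of all genes tested passed upward, 19.1% downward and 35.5% in either direction. Bhlhe41, Per1 and Bhlhe40 rose at least 2-fold (3 of 10), against 2.53% of all genes upward at that size. The median log2 fold change was 0.38 over the 10 genes and 0.02 over all genes. Because the members were chosen with earlier results of these data known, these shares are a description and no independent support. Arrays measure RNA of the whole culture, in which fewer cells of a kind and less RNA per cell cannot be told apart.

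**Figure D1:**
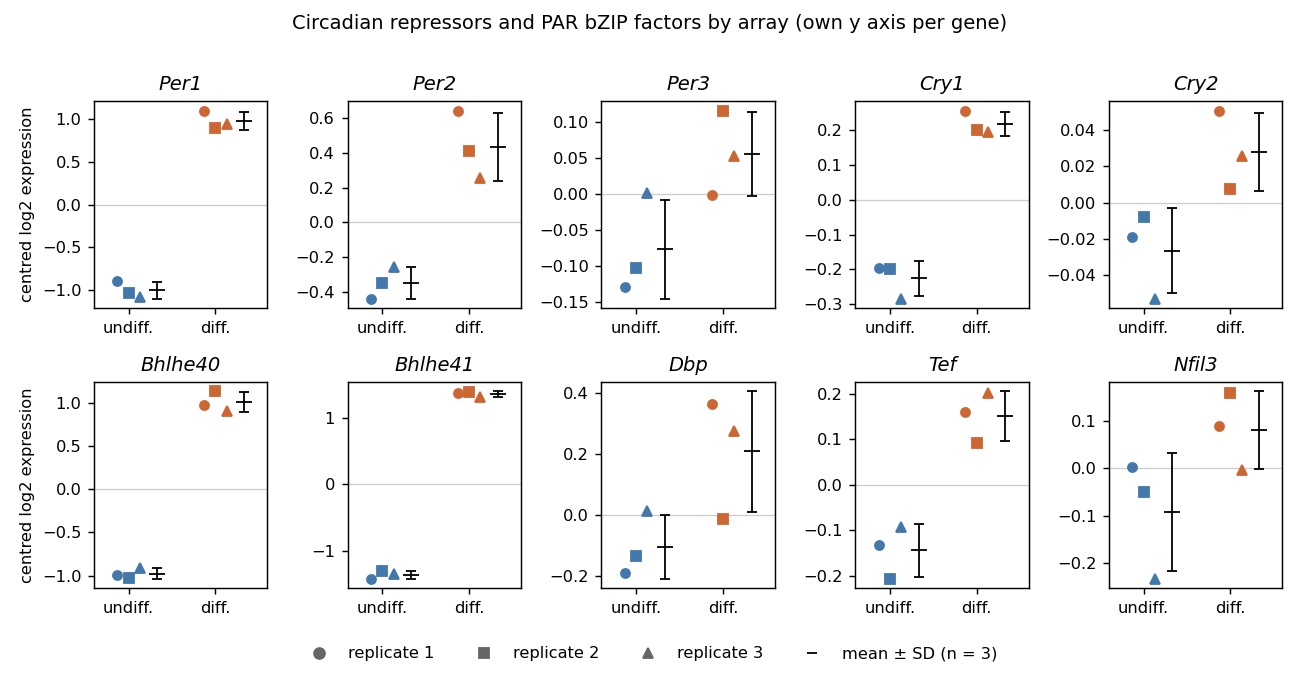
Centred log2 expression of each of the 10 genes (y axis, its own scale per gene) in the 3 undifferentiated (blue) and 3 differentiated (orange) arrays. Marker shape gives the replicate number and black bars the mean ± SD (n = 3). Groups stand far apart for Per1, Bhlhe40 and Bhlhe41, and overlap for Per3, Dbp and Nfil3.

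Of the E-box repressors, Bhlhe41 changed more than any other of the 10 genes and Bhlhe40 about as much as Per1. Bhlhe41, the DEC2 gene, stood at -1.42, -1.31 and -1.34 in undifferentiated replicates 1 to 3 and at 1.38, 1.39 and 1.31 in differentiated replicates 1 to 3. The replicates of each group lay within a narrow band and the groups were far apart. The gene was 6.59-fold higher (log2 fold change 2.72 ± 0.06 (SE, n = 3 per group), adjusted p = 8.54e-09 by limma), the 39th largest rise of 19938 genes. Its relative Bhlhe40, the DEC1 gene, read -0.99, -1.03 and -0.91 in undifferentiated arrays and 0.98, 1.14 and 0.91 in differentiated arrays. All differentiated arrays were above all undifferentiated ones, and differentiated replicate 2 was highest. Bhlhe40 was 3.97-fold higher (1.99 ± 0.07, adjusted p = 1.08e-07 by limma).

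Among the period genes the change was graded, with Per1 first, then Per2, and Per3 short of the threshold. Per1, a period gene known to respond to glucocorticoids, stood at -0.90, -1.04 and -1.08 in undifferentiated and at 1.10, 0.90 and 0.95 in differentiated arrays. The groups did not overlap, and Per1 was 3.97-fold higher (1.99 ± 0.07, adjusted p = 1.33e-07 by limma), next to Bhlhe40 in size. Per2, whose protein is a core partner of the cryptochromes, read -0.44, -0.35 and -0.26 in undifferentiated and 0.64, 0.41 and 0.26 in differentiated arrays. Its differentiated arrays were widely spread but all above the undifferentiated ones. The rise was 1.72-fold (0.78 ± 0.10, adjusted p = 2.15e-04 by limma).

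Per3, a period gene that is dispensable for the core oscillation, had -0.13, -0.10 and 0.0010 in undifferentiated and -0.0010, 0.12 and 0.053 in differentiated arrays. Undifferentiated replicate 3 and differentiated replicate 1 met at about 0, so the groups overlapped. The log2 fold change of Per3 was 0.13 ± 0.06 with a 95% interval from -0.0032 to 0.27 (adjusted p = 0.124 by limma).

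Of the cryptochrome genes, which encode the strongest repressors of CLOCK and BMAL1, Cry1 passed the test and Cry2 did not. Cry1 read -0.19, -0.20 and -0.28 in undifferentiated and 0.26, 0.20 and 0.19 in differentiated arrays. The spread was small and the groups did not overlap. Cry1 was 1.36-fold higher (0.44 ± 0.05, adjusted p = 1.82e-04 by limma). Cry2 stood at -0.019, -0.0078 and -0.053 in undifferentiated and at 0.051, 0.0078 and 0.026 in differentiated arrays. These groups did not overlap either, as for 46.2% of all genes, but the whole distance was small (0.05 ± 0.05, 95% interval -0.06 to 0.17, adjusted p = 0.464 by limma). In all, 7 of the 10 genes had groups that did not overlap, each with the differentiated arrays on top, as did 23.2% of all genes in that direction.

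Changes of the D-box regulators were small. Dbp, an output gene with a wide daily swing in most tissues, read -0.19, -0.13 and 0.013 in undifferentiated and 0.36, -0.013 and 0.28 in differentiated arrays. Differentiated replicate 2 fell below undifferentiated replicate 3, so the groups overlapped. Dbp was 1.24-fold higher (0.31 ± 0.10, 95% interval 0.09 to 0.54, adjusted p = 0.0376 by limma), and this call did not hold when an array was left out. The adjusted p was 0.119 without undifferentiated replicate 1, 0.104 without undifferentiated replicate 2, 0.131 without differentiated replicate 1 and 0.121 without differentiated replicate 3. Without differentiated replicate 2 it was 0.00396 (log2 fold change 0.42), and without undifferentiated replicate 3 it was 0.0246 (0.37).

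Tef, which encodes a further PAR bZIP activator, stood at -0.13, -0.21 and -0.09 in undifferentiated and at 0.16, 0.09 and 0.20 in differentiated arrays. Its groups did not overlap, and it was 1.23-fold higher (0.30 ± 0.06, adjusted p = 0.00322 by limma). Nfil3, the repressor of D-boxes, read 0.0039, -0.05 and -0.23 in undifferentiated and 0.09, 0.16 and -0.0039 in differentiated arrays. The groups overlapped at about 0, with undifferentiated replicate 3 lowest. The log2 fold change of Nfil3 was 0.17 ± 0.08, with an interval from 0.0022 to 0.35 and an adjusted p of 0.112 by limma (unadjusted p = 0.0477 by the same limma fit).

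**Figure D2:**
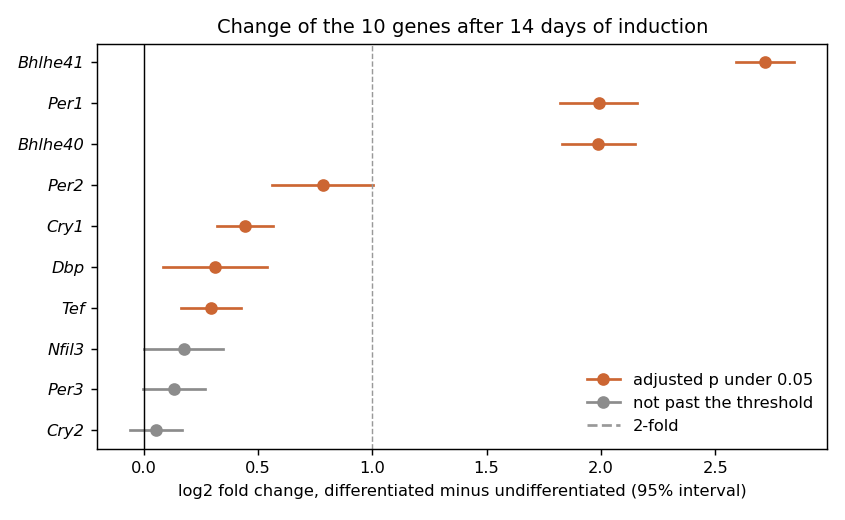
Log2 fold change (x axis, differentiated minus undifferentiated) of each gene with its 95% interval from limma, ordered by size. Orange genes passed an adjusted p of 0.05, grey genes did not, and the dashed line marks 2-fold. Only Bhlhe41, Per1 and Bhlhe40 lie beyond 2-fold, and the intervals of Per3 and Cry2 reach 0.

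In the order of change, Per1 and Bhlhe40 were neighbours whose intervals (1.82 to 2.16 and 1.83 to 2.15) nearly coincided. The intervals of Cry1 (0.32 to 0.57), Dbp, Tef (0.16 to 0.43), Nfil3, Per3 and Cry2 each overlapped with that of the next gene. Such overlap does not test whether neighbours changed by different amounts. Of these neighbours, only Dbp with Tef and Tef with Nfil3 were compared directly. The interval of Cry1 lay wholly above those of Per3 and Cry2. Bhlhe41 (2.59 to 2.85) stood clear of the next gene. Per2 (0.56 to 1.00) shared only the edge of its interval with Cry1.

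To ask whether related genes changed by different amounts, the per-array difference of 8 pairs was compared between groups. With 3 arrays against 3, the exact two-sided permutation test cannot go below p = 0.10, so it cannot call any pair. Sizes and 95% intervals, which rest on the spread of the 6 arrays, carry the comparison, and pairs that share a gene are not independent. Intervals left out 0 in 5 of the 8 pairs, all within the period, cryptochrome and BHLHE families, and these pairs each reached p = 0.10 by the exact test (0.16 after Benjamini-Hochberg adjustment over the 8).

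Per1 changed 2.31-fold more than Per2, a difference of 1.21 between their log2 changes (interval 0.84 to 1.57). Per1 exceeded Per3 by 1.86 (1.49 to 2.22), and Per2 exceeded Per3 by 0.65 (0.27 to 1.03). Cry1 exceeded Cry2 by 0.39 (0.33 to 0.44), the narrowest interval of the 8. Pair intervals are not moderated, and the SE of this difference (0.020) is below limma's moderated SE of Cry1 (0.054) or Cry2 (0.050) alone. Its precision may therefore be overstated. Bhlhe40 changed less than Bhlhe41, by -0.73 (-0.93 to -0.53).

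No such separation was measured among the D-box regulators. Dbp and Tef differed by 0.02 in their log2 changes (-0.27 to 0.30, exact permutation p = 0.90). The difference was 0.14 for Dbp and Nfil3 (-0.42 to 0.69, exact permutation p = 0.50) and 0.12 for Tef and Nfil3 (-0.22 to 0.47, exact permutation p = 0.30). Adjusted over the 8 pairs, these exact p-values were 0.90, 0.571 and 0.40. The intervals still allow differences of some size, and these values do not show that activators and repressor changed alike.

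**Figure D3:**
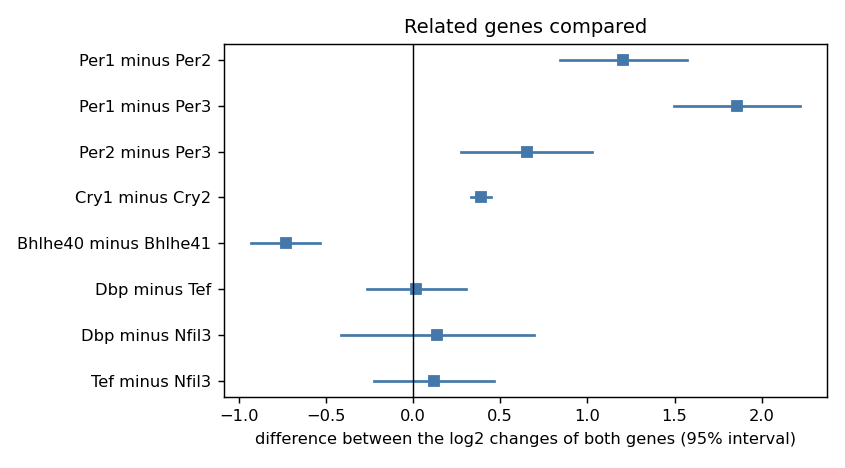
Difference between the log2 changes of the genes of each pair (x axis, first minus second, squares) with its 95% interval from the spread over the 6 arrays. The period, cryptochrome and BHLHE pairs lie away from 0, while all 3 pairs among Dbp, Tef and Nfil3 span it.

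Spread among replicates differed widely over the 10 genes. The residual SD around the group means was 0.158 for Dbp and 0.153 for Per2, wider than 91.7% and 90.4% of all genes. Nfil3 (0.105), Per1 (0.101) and Bhlhe40 (0.0936) stood above the middle of the distribution. Per3 (0.0636), Tef (0.0565), Bhlhe41 (0.0506) and Cry1 (0.0431) stood below it. Cry2 had the smallest spread, 0.0225, at the 1.86th percentile. Since the level of each gene is hidden, it is unknown how far signal strength enters these spreads. The median was 0.0786 for the 10 genes and 0.0813 for all genes.

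Dbp and Per2 were spread more among differentiated arrays (SD 0.198 for Dbp and 0.195 for Per2) than among undifferentiated ones (0.105 and 0.0917). In replicate 1 of that group Per2 stood 0.21 and Dbp 0.15 above their group means. In replicate 2 Dbp stood 0.22 below its mean, and in replicate 3 Per2 stood 0.18 below. Differentiated replicate 1 was above the group mean for 8 of the 10 genes and differentiated replicate 3 for 2 of 10. The counts were 5, 4 and 6 for undifferentiated replicates 1 to 3 and 4 for differentiated replicate 2. Averaged over the 10 genes, the deviations ran from -0.04 in differentiated replicate 3 to 0.05 in differentiated replicate 1.

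Among the related genes, Cry1 and Cry2 deviated from their group means in the same direction in 6 of 6 arrays, and Dbp and Tef in 5 of 6. Dbp and its antagonist Nfil3 did so in 1 of 6, and Tef and Nfil3 in 2 of 6. Per1 and Per2, Per2 and Per3, and Bhlhe40 and Bhlhe41 each shared direction in 4 arrays, and Per1 and Per3 in 2. Deviations of a group of 3 sum to 0, so the 6 signs are not independent, and these counts were not tested.

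**Figure D4:**
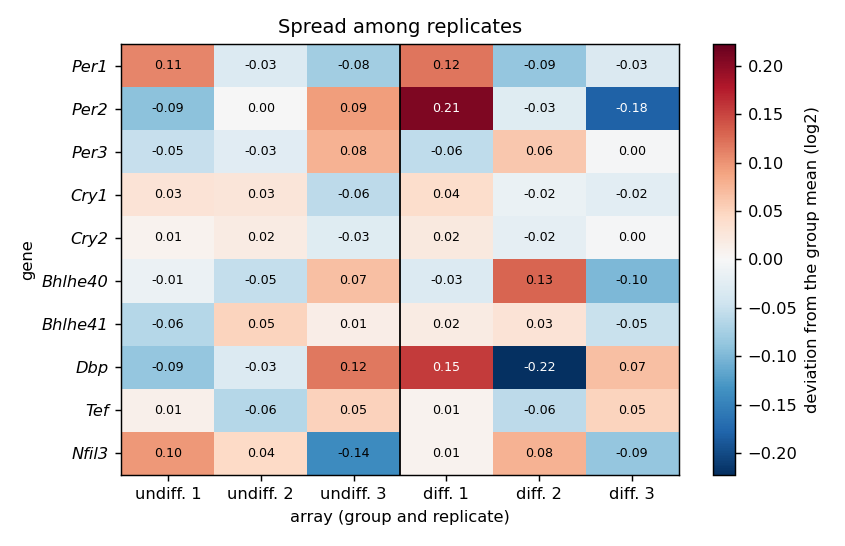
Deviation of each array from its group mean on the log2 scale (colour and printed value), with genes in rows and arrays in columns. Dbp in differentiated replicate 2 (-0.22) and Per2 in differentiated replicate 1 (0.21) are the extremes, and the Cry2 row is nearly blank.

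Genes that act on the other side of the loop moved the opposite way or did not pass. Of the activators, 3 were tested, and 2 fell while none rose (0 higher at an unadjusted limma p under 0.05). The share that fell over all genes was 19.1%. The BMAL2 gene Arntl2 read 0.27, 0.19 and 0.19 in undifferentiated and -0.19, -0.23 and -0.34 in differentiated arrays, a fall without overlap (-0.47 ± 0.06, adjusted p = 2.49e-04 by limma). Clock fell slightly (-0.21 ± 0.06, adjusted p = 0.0218 by limma), but its call was lost without undifferentiated replicate 1 (0.0582) or 3 (0.0534) and without differentiated replicate 1 (0.0819) or 3 (0.0766). The BMAL1 gene Arntl was at -0.15 ± 0.08 (adjusted p = 0.191 by limma), and it passed only without differentiated replicate 2 (0.0473). Npas2 was not analysed here.

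REV-ERB and ROR receptors compete for the elements that set Arntl expression. Of 4 tested, 2 rose and none fell (0 lower at an unadjusted limma p under 0.05), while 16.4% of all genes rose. The REV-ERBα gene Nr1d1 read -0.26, -0.47 and -0.37 in undifferentiated and 0.46, 0.26 and 0.29 in differentiated arrays, 1.63-fold higher (0.71 ± 0.08, adjusted p = 9.43e-05 by limma). The RORα gene Rora was 1.69-fold higher (0.76 ± 0.06, adjusted p = 1.24e-05 by limma). Nr1d2 (0.15 ± 0.08) and Rorb (-0.03 ± 0.06) did not pass.

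The third PAR bZIP gene, Hlf, was at 0.09 ± 0.06 (adjusted p = 0.253 by limma). Ciart, which encodes a further repressor of CLOCK and BMAL1, fell (-0.36 ± 0.11, adjusted p = 0.0330 by limma). Its groups overlapped, and the call was lost without undifferentiated replicate 1 (0.0994) or 2 (0.113), without differentiated replicate 2 (0.0976) or 3 (0.0818) and after cyclic loess scaling (0.0530).

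Of 18 kinases, ubiquitin ligases and partners of PER and CRY, none rose, 11 fell and 7 did not pass, with a median of -0.20. Over all genes tested 16.4% rose and 19.1% fell. Without adjustment, limma gave 0 higher and 13 lower, and 8584 of all 19938 genes passed in either direction. The falls numbered 7 without undifferentiated replicate 1 or 2 or differentiated replicate 3. Timeless (-1.48 ± 0.09) and Tipin (-1.21 ± 0.11) fell most, and both are known for work at DNA replication forks. The RNA-binding PER partners Sfpq (-0.53 ± 0.08) and Nono (-0.45 ± 0.05) followed. Among 6 genes under clock control, Klf10 (0.58 ± 0.06), Klf15 (0.39 ± 0.08) and Wee1, whose kinase holds back mitosis, (0.26 ± 0.06) rose and 3 did not pass, with a median of 0.18.

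Gene groups known to respond to signals that also act on Per1 and the BHLHE genes were counted in the same fit. These lists were chosen with earlier results of these data known, so their counts are a description and no independent support. All 18 glucocorticoid targets rose, against 16.4% of all genes, with a median log2 fold change of 1.73, led by Errfi1 (3.29 ± 0.06), Fkbp5 (2.93 ± 0.09), Sgk1 (2.90 ± 0.11) and Tsc22d3 (2.81 ± 0.05). All 13 immediate early genes of serum and cyclic AMP rose as well, with a median of 1.77. Nr4a1 (4.68 ± 0.13), Egr2 (3.45 ± 0.09), Egr1 (2.75 ± 0.08) and Egr3 (2.61 ± 0.11) led them. When an array was left out, 17 to 18 of the first list and 11 to 13 of the second passed. Hypoxia targets, a class to which Bhlhe40 and Bhlhe41 also belong, split into 5 higher, 5 lower and 3 not past the threshold (median 0.10). They ranged from Ndrg1 (1.23 ± 0.09) to the oxidoreductase gene Ero1a (-1.19 ± 0.09). Of 6 genes of the C/EBP branch of bZIP factors, 3 rose, 1 fell and 2 did not pass (median 0.16). For this list and the hypoxia list, the shares over all genes were 16.4% higher and 19.1% lower. Cebpd (1.11 ± 0.06), which stands in the glucocorticoid list too, Cebpb (0.77 ± 0.06) and Cebpa (0.22 ± 0.07) rose, and Cebpg fell (-0.60 ± 0.09). The part of any of these signals in the change of the 10 clock genes was not tested.

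**Figure D5:**
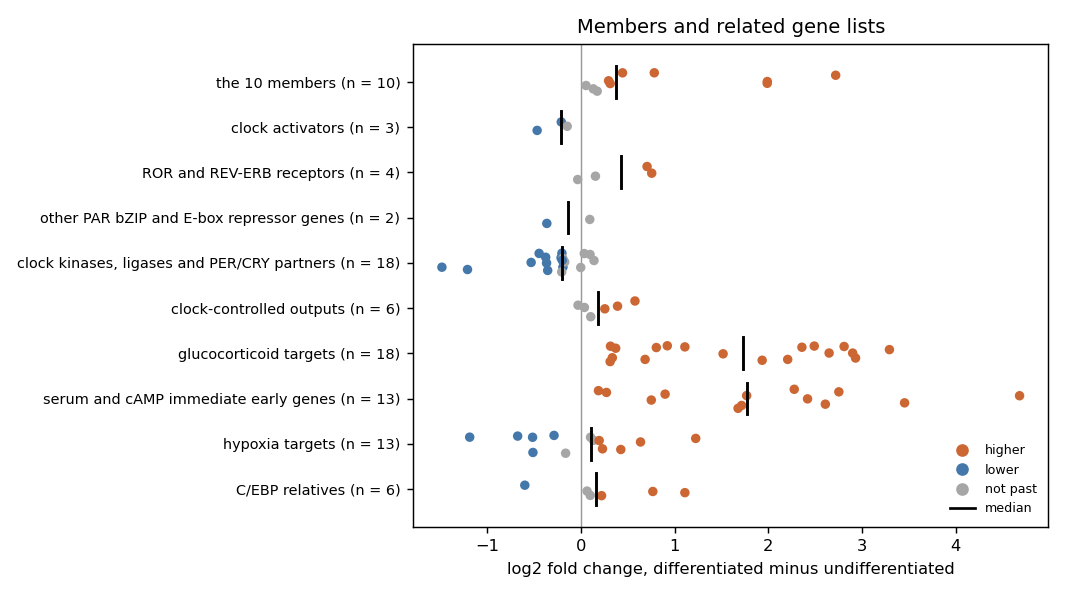
Log2 fold change (x axis) of the 10 genes and of the tested genes of 9 related lists, 1 point per gene. Orange is higher, blue lower and grey not past the threshold, black ticks are medians, and the vertical scatter is only for legibility. All points of the glucocorticoid and immediate early lists lie to the right of 0, and no activator does.

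Markers of other cell types were counted in the same fit. In differentiated arrays 1 of 9 adipocyte, 2 of 9 chondrocyte, 2 of 9 endothelial, 2 of 9 macrophage and osteoclast and 2 of 7 smooth muscle markers were higher, and 1 chondrocyte marker was lower. The shares higher were 11.1% of adipocyte, 28.6% of smooth muscle and 22.2% of each other list, against 16.4% of all genes. The endothelial count was 1 without undifferentiated replicate 1 or 2 or any differentiated array, and after cyclic loess scaling. Without undifferentiated replicate 3 the endothelial, chondrocyte and macrophage and osteoclast counts were each 3. The macrophage and osteoclast count was also 3 without differentiated replicate 2 and under some other settings. The mean centred value of the adipocyte markers was -0.04 to -0.03 over undifferentiated arrays and -0.02 to 0.07 over differentiated ones. Chondrocyte markers spanned -0.06 to 0.05 and -0.04 to -2.29e-04 in these groups. The endothelial means were -0.12 to -0.05 and 0.04 to 0.11. For macrophage and osteoclast markers they were -0.09 to -0.04 and 0.02 to 0.15, and for smooth muscle -0.15 to -0.10 and 0.06 to 0.16. Whether any of these genes is expressed at all cannot be read from centred values, and their part in the clock changes was not tested.

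The genes whose values lay closest to each member over the 6 arrays were found by root mean square difference, a likeness set mostly by the group difference. Closest to Bhlhe41 was the glucocorticoid-induced leucine zipper gene Tsc22d3 (0.0811), followed by Lmcd1 (0.0914) and Selenop (0.106). Phlda1 (0.0489), the PDGF receptor gene Pdgfra (0.0760) and the TGF-β co-receptor gene Tgfbr3 (0.0809) lay closest to Per1. The lysosomal protease gene Ctsd (0.0544), the signalling inhibitor gene Spry1 (0.0626) and Colec12 (0.0735) lay closest to Bhlhe40. Per2 was nearest to Plekhm2 (0.0584), Mlxip (0.0696) and Imp3 (0.0699), and Cry1 to Vma21 (0.0205), Tnfaip2 (0.0241) and Map2k3 (0.0247). Dbp was nearest to Psd2 (0.0346), Capn5 (0.0390) and Zbtb32 (0.0460), and Tef to Mxd1 (0.0170), Cldn7 (0.0182) and Arhgef25 (0.0203). Nearest to Nfil3 were Eif2ak4 (0.0317), Dusp16 (0.0351) and Cbr1 (0.0356). Per3 had Rassf10 (0.0137), Slc6a4 (0.0148) and Adcy1 (0.0166) as neighbours, and Cry2 had Taar4 (0.0077), Cmtm2b (0.0098) and Nr0b1 (0.0098). Small distances for these last genes reflect values that all lay near 0.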

How the data were processed

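RNA of 6 samples was labelled with biotin and hybridised to 1-colour arrays, 1 per sample. The authors deposited log2 expression made with RMA, per the submitters' processing notes, which name no version. RMA works in log2. The values themselves show a further centring, since the median over the 6 arrays is 0 for all probe sets, within 5e-07. The build behind the array is not given here. Precision is limited by the number of arrays.

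Genes were assigned to probe sets by the platform annotation, and symbols were updated through RefSeq (GRCm38.p6). Of 28856 probe sets, 21789 name 1 gene, and probe sets of a gene were averaged (999 of 19938 genes, no member). Differentiated minus undifferentiated was fitted with limma 3.58.1 in R 4.3.3 (two-sided, lmFit and eBayes, without a block). P-values were adjusted by Benjamini-Hochberg across the genes tested, and 0.05 was the threshold. Errors of single genes are limma's moderated SE. Tested on simulated data with 50 of 19938 genes changed per size, this comparison recovered 16% at a log2 change of 0.25, 54% at 0.5 and 100% at 1 and 2, with 5 false calls. The simulation left 19738 genes unchanged, while 35.5% of genes were called in the data. The adjustment was therefore stricter in the simulation, and its shares for small changes do not carry over to the data. Pairs used an exact permutation test, and their intervals came from the plain SD of the per-array differences, without limma's moderation.

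The members and gene lists were chosen with earlier results of these data known. Named genes were all members, up to 4 called genes per list with the largest changes, all activators and receptors tested, and the 3 nearest genes per member. List genes that were not tested are not analysed here. The main fit did not pair arrays by replicate number. Deviations from the group means of arrays with the same number correlated at -0.0013, 0.0692 and 0.162 across genes, for replicates 1 to 3. Undifferentiated replicates 2 and 3 correlated best with the differentiated array of their own number, and replicate 1 with differentiated replicate 2. Whether the numbers mark a shared batch was not tested.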

Additional observations from a re-analysis of the deposited data

How the results depend on the processing

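Other settings tried were a replicate block, array medians subtracted, quantile and cyclic loess scaling, array weights, every probe set tested, the lowest-numbered probe set, robust eBayes, a 2-fold minimum and each array left out. A filter on dim genes needs a level and was not run. Each of the 10 genes kept its upward direction in all 15 alternatives, but not all of these could change it. The replicate block, both probe set settings, robust eBayes and the 2-fold minimum leave the log2 change of a member as it is. Only the scalings, the array weights and the left-out arrays could move it. With the 2-fold minimum 3 of the 10 genes were higher, and 505 genes were higher and 454 lower over the whole table. Leaving out an array gave 6 to 7 members higher and 0 lower, 2675 to 3656 genes higher and 3297 to 3867 lower. The replicate block gave 7 members higher and 0 lower (3328 and 3834 genes over the whole table), and the block changed no call of a member. Besides the 2-fold minimum, Dbp was the only member whose call changed, on leaving out any 1 of 4 arrays. The log2 change of Dbp ran from 0.24 to 0.43, and that of Bhlhe41 from 2.63 to 2.74. The difference between Dbp and Tef changed sign without undifferentiated replicate 1 (-0.031) or differentiated replicate 1 (-0.056), and ran from -0.056 to 0.099. The other 7 pairs kept their sign without each array. Centred values give no signal over background, so what dim signal limits is unknown.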
